A study of Mus musculus with 4 samples.

Results

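Mouse chromosome 13 was described on either side of 64 Mb, a point at which the number of accessible regions per Mb changed. Accessible sites had been mapped with ATAC-seq, in which Tn5 transposase inserts adapters into exposed DNA and a peak is a place where insertions pile up. Peaks of 4 libraries were merged wherever they overlapped by 1 bp or more, and all merged regions on chromosome 13 were kept. There were 14799 of them among 560228 in the whole genome, with 12395 starting before 64 Mb and 2404 starting after it. The dividing point was picked from the density of these same regions, so densities, widths, library counts and gene-end shares on the 2 sides are given as descriptions with no test.

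Accessibility was mapped in mpkCCD clone 11, an immortal mouse line derived from cortical collecting duct, the kidney segment in which vasopressin controls water reabsorption. The dDAVP group received 0.1 nM of this V2-receptor-selective vasopressin analog for 30 minutes, and the vehicle group received the solvent alone for the same time, with 2 libraries of 50000 cells in each group. All libraries shared the clone, growth on permeable supports to confluence, a growth medium with dexamethasone, insulin and epidermal growth factor, and a change to medium lacking serum and hormones before treatment. Whether replicate libraries came from separate cultures is not stated in the labels, so p-values measure the spread between these libraries, which may be technical. In a bulk library, fewer cells with an open site and a less open site in each cell cannot be told apart.

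The 4 lists held 205771 to 393956 peaks, the replicate 1 list of each treatment being longer than both replicate 2 lists. Each list gives positions without scores, so the reads behind a peak cannot be counted, and where a list has no peak the site was not called, which does not make it closed. Of 8 principal-cell markers, 6 had a peak within 1 kb of a gene end in every library, beside 65.0% of all protein-coding genes. Among the 6 were Aqp2, Scnn1a, Gata3 and Hsd11b2, whereas Avpr2 had such a peak in 2 libraries and Tfap2b in 1. These counts give presence only. Umod of the thick limb, Nphs1 of podocytes, Ptprc of leukocytes and Col3a1 of stroma had none, but Lrp2, Kdr, Cd68 and Col1a1, markers of other cell types, had one in all 4. Coordinates are on mm10.

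In mouse, chromosome 13 begins at a centromere next to its first base, so the stretch before 64 Mb is the one nearer the centromere. It carries the large replication-dependent histone cluster, the prolactin, clade B serpin and vomeronasal receptor families, and many developmental regulators, while the stretch after 64 Mb carries many KRAB zinc-finger genes and long gene-poor intervals. In ATAC-seq the number of fragments from a locus rises with its exposure and with the number of DNA copies in the cells. DNA copy number was not measured in these libraries, and its part in the differences below was not tested.

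The 3 promoters on each side that lie nearest to 64 Mb and wholly inside a region called in all 4 libraries are shown because they are the accessible starts that flank the change. Each line gives the 250 bases before the annotated transcription start, from RefSeq promoters of GRCm38.p6, the patched assembly with mm10 coordinates, 5′ to 3′ on the strand of the gene. Capitals mark matches on either strand to 5 motifs, which may overlap. The GC box of Sp1-type factors was searched as GGGCGG, and the core of ETS factor sites as CCGGAAG. The box bound by NF-Y was searched by its letters CCAAT. The cAMP response element, bound by CREB-type factors downstream of cAMP, was searched as TGACGTCA, and the AP-1 site of Fos and Jun proteins as TGANTCA. Ercc6l2 (chr13:63814990-63815239, plus strand), Ptch1 (chr13:63565736-63565985, minus strand) and Fancc (chr13:63431746-63431995, minus strand) lie before 64 Mb. Zfp367 (chr13:64152374-64152623, minus strand), Habp4 (chr13:64161616-64161865, plus strand) and Cdc14b (chr13:64248539-64248788, minus strand) lie after it.
Ercc6l2: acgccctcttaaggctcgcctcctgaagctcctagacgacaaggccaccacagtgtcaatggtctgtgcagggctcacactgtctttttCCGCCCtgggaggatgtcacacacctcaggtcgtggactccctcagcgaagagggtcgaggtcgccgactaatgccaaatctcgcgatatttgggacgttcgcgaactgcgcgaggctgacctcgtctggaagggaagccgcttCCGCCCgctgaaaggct
Ptch1: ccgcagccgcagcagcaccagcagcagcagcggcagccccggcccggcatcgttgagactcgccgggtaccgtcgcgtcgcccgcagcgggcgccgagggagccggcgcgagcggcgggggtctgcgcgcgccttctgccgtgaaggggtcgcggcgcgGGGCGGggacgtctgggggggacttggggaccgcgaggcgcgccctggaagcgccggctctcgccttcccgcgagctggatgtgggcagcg
Fancc: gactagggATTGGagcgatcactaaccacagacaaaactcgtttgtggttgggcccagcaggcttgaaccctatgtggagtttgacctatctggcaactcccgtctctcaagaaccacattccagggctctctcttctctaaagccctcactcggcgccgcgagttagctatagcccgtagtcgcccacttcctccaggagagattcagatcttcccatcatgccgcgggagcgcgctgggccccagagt
Zfp367: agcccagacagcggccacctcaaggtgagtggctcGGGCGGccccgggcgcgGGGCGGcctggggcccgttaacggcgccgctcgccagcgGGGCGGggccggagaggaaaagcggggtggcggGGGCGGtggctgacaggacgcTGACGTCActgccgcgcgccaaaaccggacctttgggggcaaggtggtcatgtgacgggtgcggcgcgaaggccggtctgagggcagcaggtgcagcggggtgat
Habp4: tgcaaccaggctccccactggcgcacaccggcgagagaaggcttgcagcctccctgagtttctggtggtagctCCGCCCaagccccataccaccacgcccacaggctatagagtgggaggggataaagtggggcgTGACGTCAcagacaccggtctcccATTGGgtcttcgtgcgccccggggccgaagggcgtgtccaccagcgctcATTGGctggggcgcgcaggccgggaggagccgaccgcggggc
Cdc14b: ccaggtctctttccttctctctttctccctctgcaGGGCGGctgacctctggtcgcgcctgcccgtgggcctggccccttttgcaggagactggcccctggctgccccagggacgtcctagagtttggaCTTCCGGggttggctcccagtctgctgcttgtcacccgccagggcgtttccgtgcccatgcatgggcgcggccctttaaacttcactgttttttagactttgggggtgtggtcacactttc

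The 3 promoters before 64 Mb had between 56.4% (Fancc) and 78.4% G+C (Ptch1), and the 3 after it between 61.6% (Cdc14b) and 74.0% (Zfp367). A cAMP response element was present in the Zfp367 and Habp4 windows, 1 in each, and in none of the other 4. Over the RefSeq promoter windows of protein-coding genes, this element occurred in 1.54% of 521 windows before 64 Mb, in 5.30% of 321 windows after it and in 1.95% of 21012 windows of the genome. The 842 windows of chromosome 13 belonged to 725 genes, so a gene could count more than once. The ETS core occurred in 7.68% before, 15.3% after and 9.08% genome-wide, and the GC box in 38.2%, 46.1% and 43.0% in the same order. The NF-Y box (38.0%, 34.9% and 35.6%) and the AP-1 site (6.53%, 4.36% and 6.18%) were somewhat more frequent before 64 Mb. The median G+C of promoter windows of 300 bases was 52.7% before and 57.3% after, and its part in these shares was not tested. A match to these letters is a property of the sequence and is no evidence of a bound factor.

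The choice of these 6 starts required a region called in all 4 libraries, so only the widths of their peaks are described. Ptch1, the Hedgehog receptor gene, lay in a region of 1970 bp whose widest peak spanned 1963 and 1941 bp in the dDAVP libraries, against 1957 and 1839 bp in the vehicle libraries. Ercc6l2, a gene of the DNA damage response, had peaks of 948 and 879 bp after dDAVP and 1015 and 940 bp after vehicle, and Fancc, a Fanconi anaemia gene, had 1218 and 1279 bp after dDAVP and 1229 and 1238 bp after vehicle. After 64 Mb, Zfp367, which encodes a zinc-finger protein, had 2053 and 2128 bp after dDAVP, against 2078 and 2069 bp after vehicle. Habp4, the gene of a hyaluronan-binding protein, had 1407 and 1210 bp after dDAVP and 1262 and 1395 bp after vehicle. The values of the 2 treatments overlapped for Ptch1, Fancc, Zfp367 and Habp4, and for Ercc6l2 the range after dDAVP (879 to 948 bp) overlapped that after vehicle (940 to 1015 bp) at its upper end. For Cdc14b, a phosphatase gene with an internal start, the peaks were 813 and 721 bp after dDAVP and 902 and 892 bp after vehicle, wider in both vehicle libraries.

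Merged regions numbered 203 per Mb on average before 64 Mb and 42.7 per Mb after it, a 4.76-fold ratio of before over after. Over 1 Mb bins the number ranged between 62 and 445 with a median of 174 in the 61 bins before 64 Mb, and between 15 and 84 with a median of 39 in the 57 bins after it. In 55 of the 61 bins before 64 Mb the count exceeded the highest bin after it. Regions covered 6.77% of the sequence before and 1.70% of the sequence after. The median space between neighbouring regions was 2248 bp before and 9638 bp after, and the longest space without any region measured 89.6 kb before and 283 kb after. Of the 19 other chromosomes compared (the other autosomes and X), 10 were denser than the stretch before 64 Mb, whereas 18 were denser than the stretch after it and X was sparser.

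**Figure D1:**
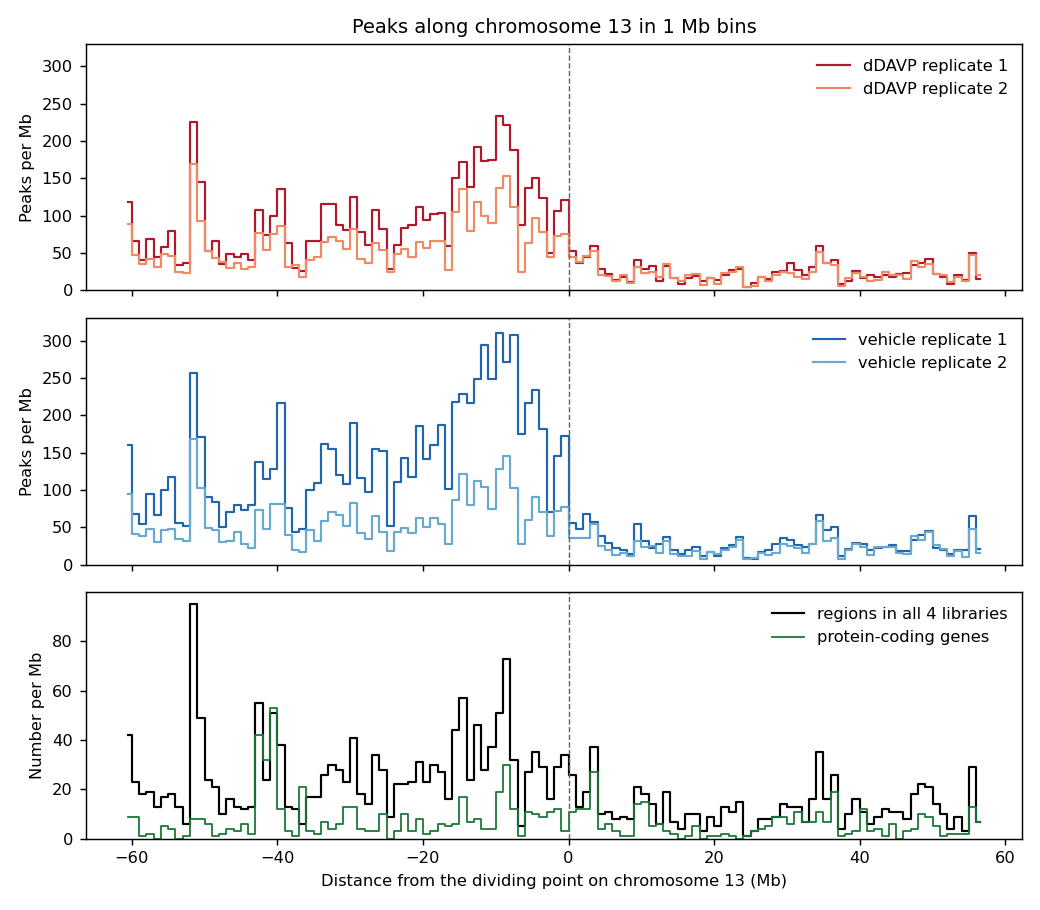
Peaks per 1 Mb bin along chromosome 13 in the 2 dDAVP libraries (top), the 2 vehicle libraries (middle) and, at the bottom, regions called in all 4 libraries with protein-coding genes, against the distance from the dividing point in Mb. The median bin is higher left of the dashed line than right of it in each library, with the widest gap in vehicle replicate 1 (128 peaks per Mb before and 24 after) and the smallest in vehicle replicate 2 (49 before and 21 after).

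The difference was present in each library, but its size varied. The median number of peaks per 1 Mb bin was 87 before and 21 after in dDAVP replicate 1, a ratio of 4.14, and 55 and 21 in dDAVP replicate 2, a ratio of 2.62. In the vehicle libraries it was 128 before and 24 after in replicate 1, a ratio of 5.33, and 49 and 21 in replicate 2, a ratio of 2.33. The side after 64 Mb was thus nearly the same in the 4 libraries (21, 21, 24 and 21 peaks per Mb), and the side before it spread over 49 to 128. The 2 libraries with the longest lists had the 2 highest ratios. When each list was reduced to its 205771 widest peaks, a setting looked at per library after seeing the data, the ratios were 3.93 in dDAVP replicate 1, 2.62 in dDAVP replicate 2, 5.55 in vehicle replicate 1 and 2.45 in vehicle replicate 2, so the replicate 1 libraries stayed above the replicate 2 libraries at equal list length. Depth and the peak threshold of each library are unknown, and their part in this order was not tested.

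The place of the change was estimated as the point that maximised the Poisson likelihood of a single change in counts per 100 kb bin. It fell at 64.1 Mb for the merged regions, for regions seen in a single library and in the peak lists of dDAVP replicate 1 and vehicle replicate 1. In dDAVP replicate 2, vehicle replicate 2 and the regions common to all 4 libraries it fell at 68.1 Mb, close to the point where the number of protein-coding genes per Mb changed most (67.9 Mb, 8.77 genes per Mb to its left and 4.95 to its right). Close to 64 Mb, the bins of 100 kb held 31 merged regions just before it and 27 just after it, followed by 6, 6, 4 and 9 in the next 4 bins. Regions called in all 4 libraries numbered 4, 4, 3, 3, 4 and 4 in those 6 bins, so over this short stretch the count of merged regions was lower past 64.1 Mb while that of all-library regions was nearly even. The bins were uneven on the denser side as well, and the bin at chr13:63800001-63900000 held 3 merged regions.

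**Figure D2:**
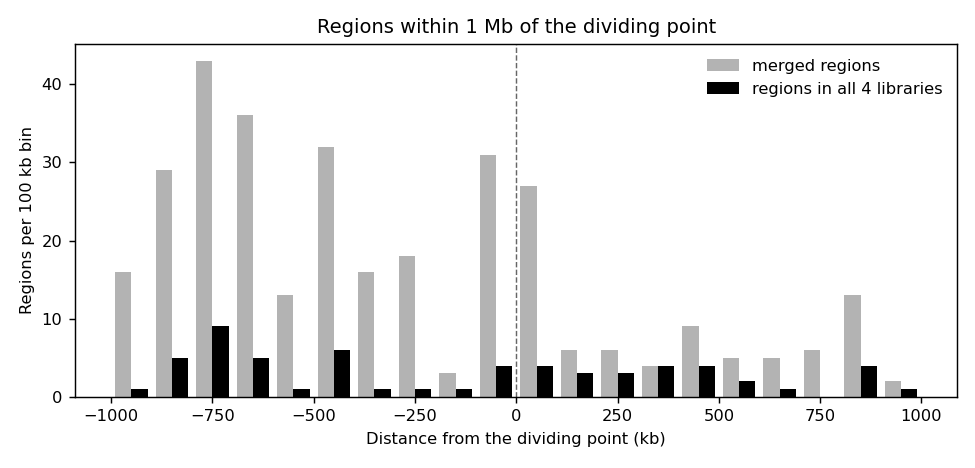
Merged regions (grey) and regions called in all 4 libraries (black) per 100 kb bin within 1000 kb of the dividing point on chromosome 13. Merged regions reach 43 in a bin on the left and no more than 13 beyond the first bin on the right, whereas all-library regions stay between 0 and 9 throughout.

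The last regions before the dividing point and the first after it were small sites outside genes. At chr13:63996837-63997478 a region of 642 bp was called in 2 libraries, with peaks of 89 bp in dDAVP replicate 1 and 642 bp in vehicle replicate 1. At chr13:64000587-64000922 a region of 336 bp was called in vehicle replicate 1 alone. Within 1 Mb of the point there were 237 merged regions before and 83 after. Protein-coding genes, placed by their lower coordinate on either strand, numbered 3 before and 11 after in that span. Within 5 Mb the genes numbered 45 before and 66 after, and within 10 Mb 118 before and 91 after. Within 0.5 Mb, all-library regions numbered 13 before and 18 after.

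A further change lay inside the denser side. With the search confined to sequence before 64 Mb, the dividing point fell at 48.4 Mb for the merged regions, at 48.5 Mb in dDAVP replicate 1, at 48.4 Mb in dDAVP replicate 2, at 48.4 Mb in vehicle replicate 1 and at 48.5 Mb in vehicle replicate 2. The 4 libraries therefore placed it within 0.1 Mb of each other. The same search confined to sequence after 64 Mb placed a smaller change of the merged regions at 77.7 Mb, with 53.4 per Mb to its left and 39.2 to its right. The points at 48.4, 64.1 and 68.1 Mb, the last that of the all-library regions, split the chromosome into 4 segments. Merged regions per Mb were 163 up to 48.4 Mb, 321 from there to 64.1 Mb, 75.0 from 64.1 to 68.1 Mb and 39.8 beyond 68.1 Mb. All-library regions per Mb were 24.5, 35.7, 23.3 and 11.7 in the same order, and protein-coding genes per Mb were 7.58, 10.5, 15.0 and 4.98.

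Protein-coding genes per Mb were higher in the third segment, just after the step at 64.1 Mb, than in the second. The ends of these segments were picked from these data, and the third ends near the change in gene number at 67.9 Mb. Within 5 Mb of 64 Mb, genes numbered 45 before and 66 after, but within 10 Mb they numbered 118 before and 91 after. Over the whole sides, genes were 1.45 times as dense before as after. The part of gene number in the step was not tested. Merged regions were 4.28 times as dense in the second segment as in the third, all-library regions 1.54 times and protein-coding genes 0.701 times. Per library, the ratio of the second segment over the third was 3.31 in dDAVP replicate 1, 2.09 in dDAVP replicate 2, 4.18 in vehicle replicate 1 and 2.21 in vehicle replicate 2. The second segment over the first gave 1.97, 1.80, 1.96 and 1.74 in the same order of libraries, a narrower range than that of the step at 64.1 Mb. Regions seen in a single library numbered 99.4, 195, 28.8 and 17.6 per Mb from the first to the fourth segment, 11.0 times as many in the second as in the fourth. That ratio was 12.2 where the library was dDAVP replicate 1, 5.99 where it was dDAVP replicate 2, 15.5 where it was vehicle replicate 1 and 5.00 where it was vehicle replicate 2, higher in both replicate 1 libraries.

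**Figure D3:**
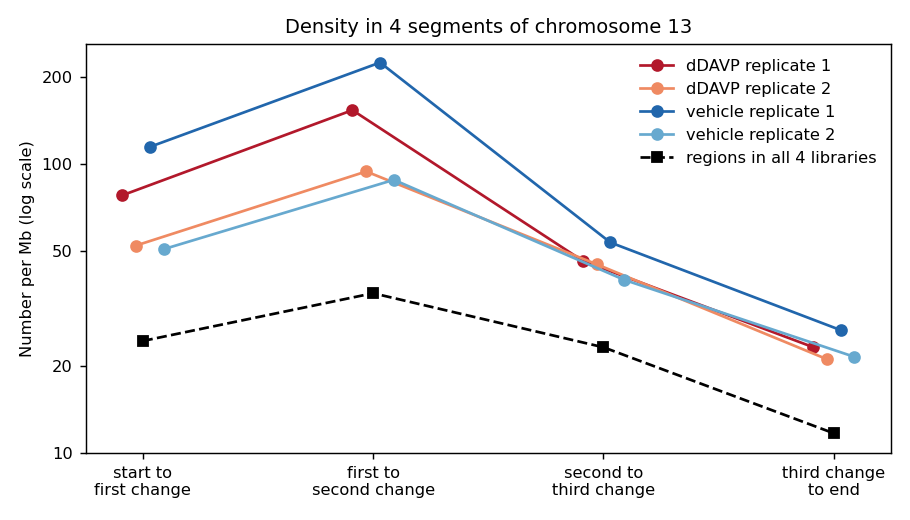
Peaks per Mb in each library and regions called in all 4 libraries (black, dashed) over 4 segments of chromosome 13 separated by the change points, on a log axis. Each library peaks in the second segment, from 88.0 per Mb in vehicle replicate 2 to 224 per Mb in vehicle replicate 1, and the 4 libraries lie close together in the fourth segment at 21.2 to 26.7 per Mb.

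Regions on the denser side were mostly seen in few libraries. Before 64 Mb, 60.9% of regions were called in 1 library alone (95% exact binomial interval 60.0 to 61.8, counting error only), against 43.9% after it (41.9 to 45.9). Regions called in all 4 libraries numbered 1667 before, or 13.4% (12.9 to 14.1), and 710 after, or 29.5% (27.7 to 31.4). Their density was 27.3 per Mb before and 12.6 per Mb after, a ratio of 2.17. The ratio of before over after was lower the more libraries shared a region, being 6.61 for regions in 1 library, 5.45 in 2 libraries, 3.48 in 3 libraries and 2.17 in 4 libraries. Among regions seen in a single library it was 7.20 where dDAVP replicate 1 was that library, 3.39 where it was dDAVP replicate 2, 9.31 where it was vehicle replicate 1 and 3.25 where it was vehicle replicate 2.

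The excess was also uneven by place and width. Regions within 1 kb of an outermost end of a protein-coding gene, called gene-end regions, were 2.72 times as dense before as after, those inside genes 6.87 times and those outside genes 4.23 times, beside 1.45 times for the genes themselves (507 before and 322 after). Gene-end regions made up 5.09% of regions before (4.71 to 5.49) and 8.90% after (7.79 to 10.1). Gene-end regions called in all 4 libraries had a ratio of 1.78, the nearest of these classes to that of the genes. By width, the ratio was 4.90 under 200 bp, 6.07 from 200 to below 400 bp, 4.18 from 400 to below 800 bp, 2.80 from 800 to below 1600 bp and 2.89 at 1600 bp and over.

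**Figure D4:**
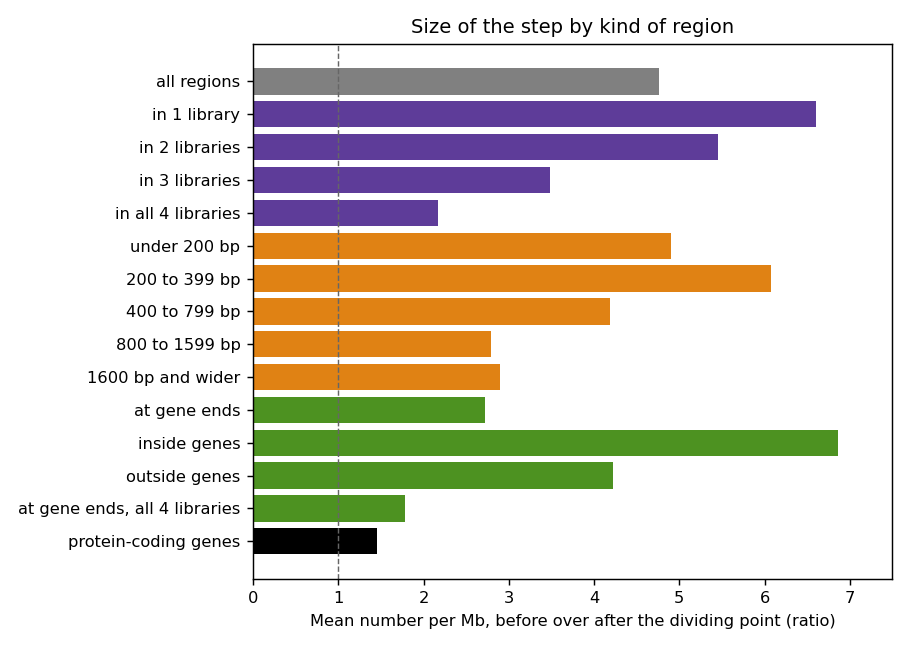
Ratio of the mean number per Mb before over after the dividing point for kinds of region on chromosome 13, with protein-coding genes at the bottom and a dashed line at 1. The ratio is 6.61 for regions in 1 library and 2.17 for regions in all 4, and every class shown stands above the 1.45 of the genes.

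Peaks were somewhat narrower before 64 Mb in each library. Over all peaks the median width was 217 bp before and 248 bp after in dDAVP replicate 1, 246 and 281 bp in dDAVP replicate 2, 218 and 246 bp in vehicle replicate 1, and 245 and 276 bp in vehicle replicate 2. All merged regions had a median width of 230 bp before and 241 bp after, and the all-library regions 744 bp before and 709 bp after. Counting the widest peak of each library inside the all-library regions, the median was 470 bp before and 486 bp after in dDAVP replicate 1, and 448 and 498 bp in dDAVP replicate 2. It was 525 bp before and 506.5 bp after in vehicle replicate 1, and 445 and 481 bp in vehicle replicate 2. By this measure the before side was the wider in vehicle replicate 1 and the narrower in the other 3 libraries.

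Other chromosomes also had uneven densities, with smaller ratios. At the best single dividing point of each of 20 chromosomes, the denser over the sparser side gave 4.82 on chromosome 13, followed by 3.54 on chromosome 4, 2.93 on chromosome 8 and 2.77 on chromosome 2, and the lowest was 1.16 on chromosome 19. For the all-library regions over the same sides the ratio was 2.18 on chromosome 13, against 3.58 on chromosome 4, 2.91 on chromosome 8 and 3.56 on chromosome 2. Chromosome 13 was therefore highest for merged regions but not for regions shared by all libraries. A lower ratio for all-library than for merged regions was also seen elsewhere, as on chromosomes 9 (1.25 against 1.53) and 14 (2.05 against 2.27). It was higher on others, chromosomes 4 and 2 among them. The share of regions called in all 4 libraries was 28.3% on chromosome 4, 27.0% on chromosome 7, 26.3% on chromosome 18 and 32.9% on X, sparse chromosomes whose values bracket the 29.5% of chromosome 13 after 64 Mb, while the 13.4% before it lay just below the 13.7% to 18.6% of the remaining chromosomes. These differences were not tested.

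Gene ends with a peak in every library made up close shares on the sides, whereas ends with no peak in any library were more frequent after 64 Mb. All 4 libraries had a gene-end peak at 311 of 507 protein-coding genes before 64 Mb, or 61.3% (56.9 to 65.6), and at 186 of 322 after it, or 57.8% (52.2 to 63.2), beside 65.0% of all 21887 protein-coding genes. No library had one at 21.3% of genes before and 32.0% after, beside 19.2% of all protein-coding genes. In single libraries the share was 71.0% before and 61.5% after in dDAVP replicate 1, 65.7% and 59.3% in dDAVP replicate 2, 74.8% and 66.1% in vehicle replicate 1, and 66.1% and 59.9% in vehicle replicate 2, higher before 64 Mb in each library. Counting a peak anywhere in the gene in place of its ends put the difference of before minus after at -0.141 percentage points, against 3.58 at the ends.

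Promoters were compared by their sequence, a division added after seeing the data. A RefSeq window of 300 bases around the start was called CpG-rich when its observed over expected CpG was at least 0.6 and its G+C at least 50%, as is common for broadly used genes. Such windows made up 41.3% of 521 before and 54.8% of 321 after. A peak in all 4 libraries overlapped 196 of 215 CpG-rich promoters before, or 91.2% (86.5 to 94.6), and 149 of 176 after, or 84.7% (78.5 to 89.6). Among CpG-poor promoters the shares were 29.7% before (24.7 to 35.2) and 32.4% after (24.9 to 40.7). Leaving out 6 tandem gene families reversed this order, with 28.0% of CpG-poor promoters called in all 4 libraries before and 23.1% after. The intervals of the sides overlapped with and without these families. No genome-wide share of CpG-rich or CpG-poor promoters with a peak is available, so neither side can be set beside the usual share. Without them, CpG-poor promoters called in 1 to 3 libraries made up 31.0% before and 5.79% after, and those called in none 41.1% before and 71.1% after.

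**Figure D5:**
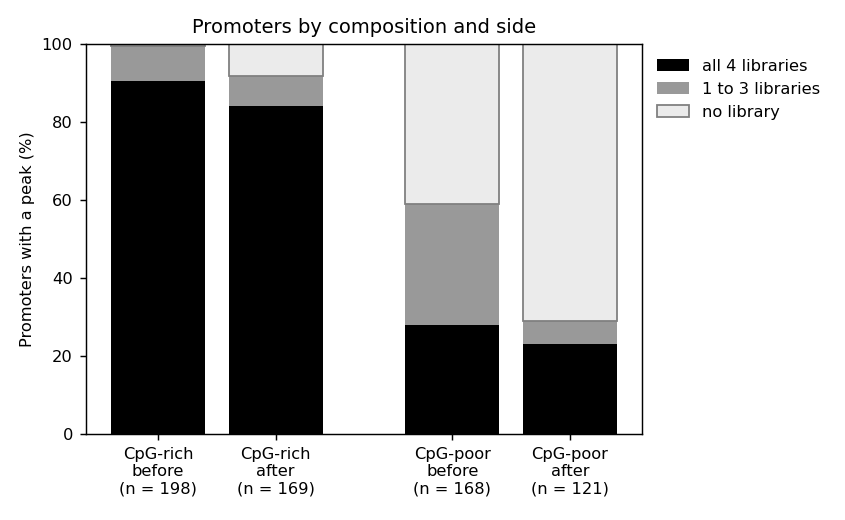
Share of protein-coding promoters on chromosome 13 overlapped by a peak in all 4 libraries, in 1 to 3 or in none, for CpG-rich and CpG-poor windows before and after the dividing point, without 6 tandem gene families. Among CpG-rich bars the black part is 90.4% before and 84.0% after and the pale part, with no peak, 0.505% before and 8.28% after, and among CpG-poor bars the grey part is larger before (31.0%) than after (5.79%).

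CpG-rich promoters without a peak in any library were 1 of 215 before (0.465%) and 14 of 176 after (7.95%). No genome-wide share of such promoters is available to set beside these. The 1 before was at Ly86, a partner of a Toll-like receptor relative. Names here were read off after their values were seen. The 14 included the homeobox genes Otp and Isl1 of neural and endocrine development, the neuropeptide gene Cartpt, the germ-cell helicase Ddx4, the Wnt antagonist Nkd2, and the neighbouring Dmgdh and Bhmt2 of choline and methionine metabolism. The others were Gm47655, Ahrr, Acot12, Ankrd34b, S100z, Gcnt4 and Cspg4b. The Dmgdh and Bhmt2 windows overlap each other. Within 1 kb of a gene end, Otp had a peak of 461 bp and Isl1 one of 100 bp, both in vehicle replicate 1 alone. In or near the gene, Otp had a peak in 2 libraries and Isl1 in 1.

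Among genes of epithelial and tubule function, 6 of 8 before 64 Mb and 8 of 12 after it had a gene-end peak in all 4 libraries, near the 65.0% of all genes. Foxq1, a forkhead transcription factor gene, had a widest gene-end peak of 2727 and 2749 bp after dDAVP and 2727 and 2745 bp after vehicle, nearly the same in all 4 libraries. Foxc1, another forkhead gene, had 2472 and 2599 bp after dDAVP and 2469 and 2472 bp after vehicle. Dsp, the gene of the desmosome protein desmoplakin, had 2267 and 2245 bp after dDAVP and 1984 and 1994 bp after vehicle, wider in both dDAVP libraries. After 64 Mb, the tight-junction gene Ocln had 1673 and 1668 bp after dDAVP and 1641 and 1926 bp after vehicle, so its ranges overlapped. F2rl1, which encodes a protease-activated receptor, averaged 1460 ± 64.8 bp over all 4 libraries, and Ctsl, a lysosomal cathepsin gene, 981 ± 135 bp (SD, n = 4). Irx1, Irx2 and Slc9a3, the last encoding the apical sodium-proton exchanger of the proximal tubule, had no gene-end peak. In or near the gene, a peak was called in 4 libraries for Irx2, in 2 for Slc9a3 and in none for Irx1.

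Genes of cAMP and calcium signalling, the pathway through which the V2 receptor acts, had such a peak in 5 of 7 cases before and 1 of 6 after, beside 65.0% of all genes. With a peak in or near the gene counted in place of its ends, all 7 before and all 6 after had one in every library. The 65.0% is for gene ends, and no share of all genes by this wider measure is available to set beside these counts. Before 64 Mb, Gng4, a G protein gamma subunit gene, averaged 1471 ± 334 bp, Grk6, a G protein-coupled receptor kinase gene, 1436 ± 11.9 bp, and the dopamine receptor gene Drd1 899.5 ± 54.8 bp (SD, n = 4). After it, Pik3r1, the regulatory subunit of phosphoinositide 3-kinase, had 1557 and 1533 bp after dDAVP and 1723 and 1909 bp after vehicle, wider in both vehicle libraries. Pde4d, a cAMP phosphodiesterase gene, Map3k1 and Rgs7bp had none at their outermost ends, although each had a peak in or near the gene in all 4 libraries. Pde4d is very long with internal starts, which the gene-end windows do not cover.

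Of genes in Hedgehog, TGF-beta and growth factor signalling, 8 of 11 before and 2 of 3 after had a gene-end peak in all 4 libraries, near the 65.0% of all genes. Gli3, a Hedgehog transcription factor gene, had 1646 and 1563 bp after dDAVP and 1717 and 2178 bp after vehicle. Gas1, a Hedgehog co-receptor gene, averaged 2271 ± 326 bp and Smad5, a BMP signal transducer gene, 1530 ± 93.0 bp (SD, n = 4). Fst, the activin antagonist gene, averaged 1090 ± 141 bp after 64 Mb and Il6st, the shared receptor of interleukin-6 family cytokines, 1046 ± 92.4 bp (SD, n = 4). Inhba, an activin subunit gene before 64 Mb, and Fgf10, a growth factor gene after it, had none at their ends. In or near the gene, Inhba had a peak in 4 libraries and Fgf10 in 1.

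The list headed developmental transcription factors had 11 of 11 members before 64 Mb with a gene-end peak in every library and 1 of 7 after it, beside 65.0% of all genes. Of the other 6 after it, 4 had one in 1 to 3 libraries. E2f3, a cell-cycle transcription factor gene, averaged 2666 ± 35.3 bp and Sox4 2176 ± 111 bp (SD, n = 4). Gadd45g, a stress-response gene rather than a transcription factor, averaged 2071 ± 476 bp (SD, n = 4). After 64 Mb the nuclear receptor gene Nr2f1 had 577 and 520 bp after dDAVP and 1267 and 484 bp after vehicle, the vehicle replicate 1 library standing apart. Mef2c and Mctp1, a calcium-binding membrane protein gene, had no gene-end peak. In or near the gene, Mctp1 had a peak in all 4 libraries and Mef2c in none.

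Genes used in most dividing cells were accessible on both sides. For DNA replication, repair and cell cycle, 3 of 4 before and 16 of 17 after had a gene-end peak in all 4 libraries, and for the list headed housekeeping 20 of 20 before and 17 of 19 after, beside 65.0% of all genes. Gmnn, the replication licensing inhibitor, averaged 1000.5 ± 145 bp and Dek, a chromatin protein gene, 1178 ± 24.4 bp before 64 Mb (SD, n = 4). After it, Plk2, a polo-like kinase gene, averaged 1348 ± 44.3 bp, and the DNA polymerase gene Polk 1316 ± 70.9 bp (SD, n = 4). The kinesin gene Kif2a ranged between 1235 and 1325 bp. Cetn3, a centrin gene, had no gene-end peak but a peak in or near the gene in all 4 libraries. The kinase gene Cdk13 averaged 2386 ± 42.9 bp, Hnrnpa0 2192 ± 33.0 bp and the nuclear pore gene Nup153 1718 ± 68.8 bp before 64 Mb (SD, n = 4). After it, the RNA methyltransferase gene Nsun2 ranged between 1254 and 1477 bp, and the complex I assembly gene Ndufaf2 averaged 1274 ± 37.5 bp and the peptidase gene Nln 1213 ± 118 bp (SD, n = 4). The 2 genes without a gene-end peak in the housekeeping list, Ddx4 and Ankrd31, are germ-cell genes and do not match its heading. Ankrd31 had a peak in or near the gene in 3 libraries and Ddx4 in none.

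Tandem families differed widely in how many members had an accessible end. For comparison, 65.0% of all protein-coding genes had a gene-end peak in all 4 libraries and 19.2% had one in no library. Of 53 replication-dependent histone genes, all before 64 Mb, 52 had a gene-end peak in all 4 libraries; many share a peak, as do H4c1, H3c1 and H1f1 under one of 1916 ± 10.8 bp (SD, n = 4). Zinc-finger genes had one at 6 of 7 before, among them Zfp184, Zfp322a and Zfp808, and at 21 of 30 after, among them Zfp131, Zfp367 and Zfp712. Zfp934 before and Zfp458, Zfp595 and Zfp459 after had none, although all of these but Zfp459 had a peak in or near the gene in all 4 libraries. With a peak in or near the gene counted, 7 of 7 zinc-finger genes before and 27 of 30 after had one in every library. No share of all genes by this wider measure is available, for the zinc fingers or for the serpins below. Prolactin-family genes, hormones of placenta and pituitary, had one at 2 of 26, Prl2c3 and Prl2c2, and 22 had none, including Prl, Prl2b1 and Prl2a1. Clade B serpins, intracellular protease inhibitors, had one at 3 of 16 (Serpinb6a, Serpinb1c and Serpinb6c) and none at 5, including Serpinb6b, Serpinb9 and Serpinb1b. Each of the last 3 had a peak in or near the gene in all 4 libraries, as did 8 of the 16 serpins in total. Cathepsins before 64 Mb had one at 1 of 9, Ctsm, and none at 6, including Cts6, Cts7 and Cts3. None of 48 olfactory and vomeronasal receptor genes before 64 Mb had one in all 4 libraries and 39 had one in no library, Olfr1362, Olfr11 and Olfr1361 among them, and Olfr466 after it had none. Reads from near-identical family copies may be split or dropped by mapping, so these counts are uncertain.

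Of the 5 genes nearest to 64 Mb on each side, Aopep, Fancc and Ptch1 before it and Slc35d2, Zfp367, Habp4 and Cdc14b after it had a gene-end peak in all 4 libraries. Aopep, an aminopeptidase gene, averaged 675 ± 167 bp before the point, and Slc35d2, a nucleotide-sugar transporter gene, 668 ± 62.8 bp after it (SD, n = 4). Fbp1, the gluconeogenic bisphosphatase gene, had a gene-end peak in 3 libraries, and Hsd17b3, a steroid dehydrogenase gene, in none. In or near the gene, a peak was called in 4 libraries for Fbp1 and in 2 for Hsd17b3. The outermost ends of Ercc6l2 had a peak in vehicle replicate 1 alone, whereas its promoter printed above lies inside the annotated gene and had one in all 4 libraries. The printed promoters of Ptch1 and Fancc also lie inside the gene. At the outermost ends, the widest peaks of Ptch1 were 252 and 164 bp after dDAVP and 566 and 380 bp after vehicle. Those of Fancc were 386 and 202 bp after dDAVP and 241 and 345 bp after vehicle.

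The widest all-library region before 64 Mb lay in Pfkp, a phosphofructokinase gene (chr13:6607996-6612800, 4805 bp), with peaks of 1263 and 1653 bp after dDAVP and 2565 and 2177 bp after vehicle. Next came one in Kif27 (chr13:58346367-58349910, 3544 bp) and one outside genes (chr13:12925658-12928984, 3327 bp). After 64 Mb the widest lay in Tmem267 (chr13:119596309-119600591, 4283 bp), with 4265 and 3111 bp after dDAVP and 4278 and 4268 bp after vehicle, followed by Arl15 (chr13:113803212-113807137, 3926 bp) and Zswim6 (chr13:107888736-107891501, 2766 bp). The Pfkp peaks were wider in both vehicle libraries, and the Tmem267 peaks were narrowest in dDAVP replicate 2.

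No difference in the size of the step between treatments was detected, and its place was not compared between them. The log2 ratio of median peak density, before over after, averaged 1.72 ± 0.47 in the dDAVP libraries and 1.82 ± 0.84 in the vehicle libraries (SD, n = 2 each), a difference of -0.10 (two-sided exact permutation p = 1). With 2 libraries against 2 the smallest p this test allows is 0.33. Peaks before 64 Mb numbered 4883 ± 1474 after dDAVP and 6180 ± 3541 after vehicle (SD, n = 2 each, exact p = 1), and peaks after it 1352 ± 86.3 after dDAVP and 1458.5 ± 235 after vehicle (SD, n = 2 each, exact p = 0.667). The difference of log2 ratios was 0.23 without dDAVP replicate 2, 0.50 without vehicle replicate 1, -0.43 without dDAVP replicate 1 and -0.70 without vehicle replicate 2, so its sign rested on single libraries.

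Widths of single regions were compared with limma over all 88231 all-library regions of the genome. None of the 2377 on chromosome 13 differed at a Benjamini-Hochberg adjusted p of 0.05, nor did any in the rest of the genome (0%), and the smallest adjusted p was 0.819. An unadjusted p under 0.05 was reached by 83 regions before 64 Mb (4.98%) and 29 after it (4.08%), near the 5.51% of the genome. The smallest p before 64 Mb belonged to chr13:62727670-62728451, with peaks of 645 and 782 bp after dDAVP and 72 and 92 bp after vehicle (log2 change 3.12, SE 0.35, limma adjusted p = 0.819). After it, chr13:68235959-68236460 had 87 and 76 bp after dDAVP and 447 and 414 bp after vehicle (log2 change -2.33, SE 0.30, limma adjusted p = 0.819). Neither these nor Dsp, Gli3 or Pik3r1 passed the test.

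Regions with a peak in both libraries of a treatment and none of the other were few. Those of dDAVP numbered 157 before 64 Mb (1.27%) and 40 after it (1.66%), beside 1.61% of all regions in the genome. Those of vehicle numbered 307 before (2.48%) and 44 after (1.83%), beside 3.35% genome-wide. With each list reduced to the same number of widest peaks, the dDAVP-only regions were 197 before and 41 after and the vehicle-only regions 190 before and 27 after. On chromosome 13 the larger number for vehicle was thus not kept at equal list length. Shares at this setting, on chromosome 13 or genome-wide, were not computed, so these counts cannot be set beside the percentages above. The widest of the first kind lay outside genes at chr13:50184030-50185049, with 674 and 470 bp after dDAVP, and after 64 Mb at chr13:99142649-99143225, with 499 and 359 bp after dDAVP. The widest of the second kind lay in Diras2 at chr13:52518526-52519900, with 1375 and 224 bp after vehicle, and after 64 Mb at chr13:111390261-111391030, with 702 and 310 bp after vehicle. The second in width lay in Fars2 (919 and 117 bp after dDAVP) and Arhgef28 (524 and 92 bp after dDAVP), and in Txndc5 (1131 and 609 bp after vehicle) and nearest to Cox7c (362 and 340 bp after vehicle). Every count depended on every library, and leaving 1 out also loosens the criterion and changes the number of regions. Only counts, without shares, are available for these settings. The 157 became 952 without dDAVP replicate 1, 2073 without dDAVP replicate 2, 530 without vehicle replicate 1 and 277 without vehicle replicate 2. In the same order of libraries left out, the 40 became 251, 289, 108 and 105, the 307 became 662, 501, 1016 and 4592, and the 44 became 127, 110, 243 and 476.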

How the data were processed

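ATAC-seq libraries of 50000 cells were sequenced as 50 bp read pairs, per the labels' protocols. The deposited lists give the authors' peak positions in each library separately, with no score, count or signal. MACS2, Bowtie2, cutadapt, Picard, SAMtools and bedtools are listed with the mm10 build in the submitters' processing notes. Their versions, the peak threshold, duplicate handling and any shift for the Tn5 cut were not given in the sources used here. Depth is therefore unknown, and list length and peak width depend on it.

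Members, gene lists and tests were chosen with earlier results of these data known. Peaks overlapping by 1 bp or more were merged. Density was the median over 1 Mb bins or the mean over a side, and change points used 100 kb bins, at least 10 Mb from either end. Genes and promoters came from RefSeq (GRCm38.p6), and of 130 listed genes 5 were not found on chromosome 13. Of each list and side, up to 3 genes with the widest gene-end peaks in all libraries and up to 3 without any were named, with the 5 genes nearest to 64 Mb on each side and the widest regions. Motifs were searched on both strands of the 250 bases upstream of each start. dDAVP and vehicle were compared by an exact permutation test and, for quantile-normalized log2 widths computed here from the deposited positions, by limma 3.58.1 (R 4.3.3) with Benjamini-Hochberg adjustment. Python 3.11.15, pandas 2.3.3 and scipy 1.17.1 were used. The procedures were also run on simulated data with a single clean step and with less spread in width than here. Those runs do not show what could be missed in these data. Promoter composition, segments, further change points and ratios per library at equal list length were added after seeing the data. Alternatives covered the dividing point, bins, regions counted, merging, gene-end window, width measure, normalization, replicate block and each library left out.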

Additional observations from a re-analysis of the deposited data

How the results depend on the processing

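The median density ratio of merged regions, before over after 64 Mb, was 4.46 and lay between 3.19 and 5.00 under all alternatives but one; among regions in all 4 libraries it was 2.18. Leaving out 1 library gave 3.81 to 4.79. The share of regions in all 4 libraries, before minus after, was -16.1 percentage points, and -13.5 with the division at 62 Mb or -13.3 with equal numbers of widest peaks. The share at gene ends was -3.81 points and -4.23 to -3.37 without single libraries. The share of genes with a gene-end peak, 3.58 points, was 1.38 with windows of 0.5 kb, -0.141 with the whole gene, 10.7 with any 1 library, and 3.58 to 5.24 without single libraries. The width ratio of all-library regions, 1.05, was 0.981 with the mean width of the peaks inside and 0.991 to 1.02 without single libraries. The causes were not tested.

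For dDAVP minus vehicle, the log2 ratio difference of -0.10 was -0.70 to 0.50 without single libraries, positive without dDAVP replicate 2 (0.23) and without vehicle replicate 1 (0.50). The replicate block gave the same -0.10 (exact p = 1), with -0.36 for number 1 and 0.17 for number 2; same-numbered libraries correlated at 0.112 in width deviations on chromosome 13 and 0.0882 over the genome, and the labels do not say that numbers mark pairs. The block changed no call. With all 4 libraries, limma called 0 regions on chromosome 13 and in the genome under every setting. An unadjusted limma p under 0.05 was reached by 4.67% to 4.84% of the regions on chromosome 13. The genome-wide share was 5.51% to 5.81%. With equal numbers of widest peaks, dDAVP-only regions were 197 before and 41 after, and vehicle-only regions 190 before and 27 after. Leaving out 1 library gave 277 to 2073 dDAVP-only and 501 to 4592 vehicle-only regions before, and 105 to 289 dDAVP-only and 110 to 476 vehicle-only regions after.

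Without read depth, sites that were not called cannot be told from sites that are closed, and DNA copy number cannot be read from positions alone.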
